A study of Mus musculus with 47 samples.

Results

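The transcripts described are those of 40 splicing factor genes measured in mouse retina: 11 genes of the SR family (symbols starting with Srsf), 20 of the hnRNP family (Hnrnp) and 9 of the SF3A and SF3B complexes (Sf3a, Sf3b). They were chosen by symbol, among protein-coding genes with at least 0.5 RPKM (reads scaled to exon length in kilobases and to library size in M (mega) reads) in at least 12 libraries. All 40 protein-coding genes with these symbols met that level, and each met it in all 47 libraries, out of 57180 genes listed and 15321 genes tested. Retinas came from C57BL/6 mice, a common inbred laboratory strain, aged 6 weeks (young) or 20 months (aged) and kept in 12 h of light and 12 h of darkness. The right eye of 4 mice per age was taken every 4 h at zeitgeber times (ZT, hours from lights on), of which ZT2, ZT6 and ZT10 belong to the day and ZT14, ZT18 and ZT22 to the night. Libraries were made from polyadenylated RNA, 24 from young and 23 from aged retinas, since aged ZT18 has 3. No genotype or treatment beyond age and time is given in the labels. The design asks for the effect of age on each transcript, for its daily cycle in young and in aged retinas, and for a difference between these cycles.

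Introns are removed by the spliceosome, whose U2 particle recognises the branch point through the SF3A and SF3B complexes. SR proteins bind exons and recruit the splicing machinery, while hnRNPs coat the new transcript and often repress splice sites, so the balance between the families sets which exons are used. Photoreceptors express many transcripts with their own exon choice, and inherited defects of core splicing factors cause retinal degeneration. Many SR and hnRNP genes also make a second, nonproductive transcript with a so-called poison exon that is degraded. The level of a whole gene, as measured here, does not separate the productive form from the nonproductive one.

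The libraries had the profile of retina. The summed level of 8 rod photoreceptor markers was 13433 to 22899 RPKM over all libraries, and the values imply 32.02 to 55.5 M reads per library (median 37.0 M). A pair of libraries stood apart from the others of their groups in the splicing factor transcripts. In the aged ZT6 replicate 3 library, 14 of the 40 transcripts lay more than 1.5-fold below the median of the group and none lay as far above it. In the young ZT10 replicate 4 library, 4 lay as far below and 5 as far above. In each of the other 45 libraries at most 1 of the 40 did so. Over all tested genes the shares beyond 1.5-fold were 37.6% in the aged library and 52.4% in the young one. Markers of inner retina cells were also low in the young library: the summed level of 3 Müller glia markers was 66.9 RPKM against 398 to 760 RPKM in the other 45 libraries, and that of 4 ganglion cell markers was 8.16 RPKM against 71.1 to 280 RPKM. Counts and calls that change when both are left out, a choice made after seeing the data, are also given without them. In bulk tissue, fewer cells of a type and less RNA per cell cannot be told apart.

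**Figure D1:**
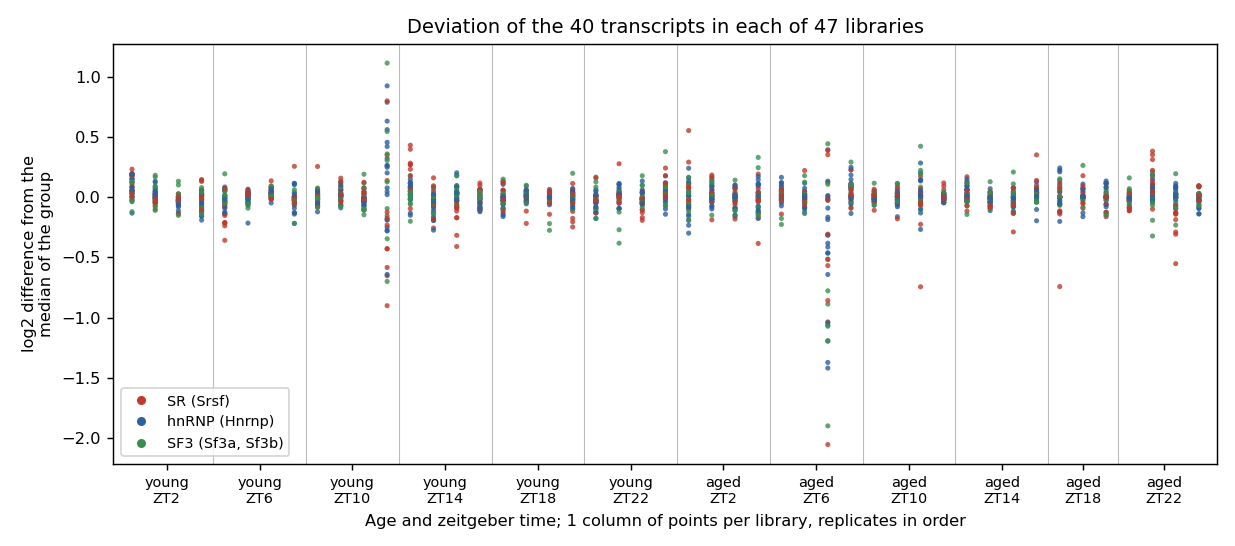
Each point is 1 of the 40 transcripts in 1 library, placed at the log2 difference of its level from the median of its age and time group. The columns run through the 12 groups from young ZT2 to aged ZT22, and the colours mark the families. The points of 45 libraries lie close to 0, while those of aged ZT6 replicate 3 spread widely, mostly downward, and those of young ZT10 replicate 4 in both directions.

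The hnRNP transcripts were the most abundant. Their median level was 38.1 RPKM, against 23.3 RPKM for the SR family and 17.02 RPKM for SF3, on a scale that corrects for transcript length. The 4 highest were Hnrnpa0, which binds AU-rich messages, Hnrnpa1, the classic silencer of exons, Hnrnpk, which binds runs of C, and Hnrnpl, which binds CA repeats. Hnrnpa0 (ENSMUSG00000007836) was lowest, median and highest at 87.0, 95.3 and 123 RPKM in young and at 41.1, 97.5 and 109 RPKM in aged. Hnrnpa1 (ENSMUSG00000046434) was at 74.3, 82.7 and 143 RPKM in young and at 70.6, 86.9 and 102 RPKM in aged. The age ranges of both overlapped, and the lowest aged Hnrnpa0 value came from the aged ZT6 replicate 3 library. Hnrnpk had a mean of 71.2 RPKM and Hnrnpl of 68.8 RPKM over all libraries. The 3 lowest were Srsf12, an SR-related protein that can oppose the others, at a mean of 1.96 RPKM, Hnrnpll, a close relative of Hnrnpl, at 5.28 RPKM, and Hnrnpr, which binds messages in neurons, at 5.38 RPKM. Srsf12 ran from 0.801 to 2.75 RPKM in young and from 1.11 to 2.93 RPKM in aged. Several hnRNP genes have processed pseudogenes or near-identical relatives, such as Hnrnpa1 and the pair Hnrnph1 and Hnrnph2, and reads may have been shared out between such copies in the authors' counting, which makes these levels uncertain.

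**Figure D2:**
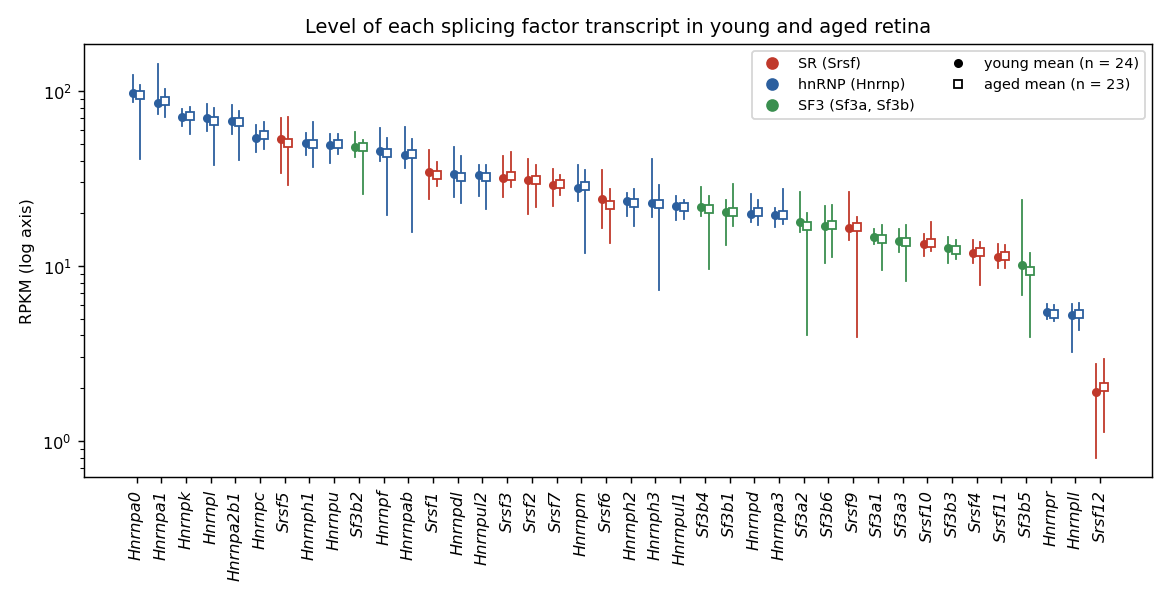
RPKM on a log axis for the 40 transcripts, ordered by mean. Filled circles are young means (24 libraries), open squares aged means (23 libraries), and lines run from the lowest to the highest library. The young and aged means of each transcript lie side by side, from Hnrnpa0 near the top to Srsf12 at the bottom.

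Over the day, 23 of the 40 transcripts (57.5%) cycled in a fit with 1 curve for both ages, against 30.2% of all tested genes. A 24 h cosine curve was fitted to log2(RPKM + 0.5) with limma, and a transcript was called when the adjusted p was under 0.05. All 7 SR transcripts that passed had their fitted peak in the light, as did the 3 SF3 transcripts that passed. Of the 13 hnRNP transcripts that passed, 3 peaked in the light and 10 in the dark. Of all tested genes 20.5% passed with a peak in the light and 9.73% with one in the dark, so that 67.8% of the genes that passed peaked in the light. Whether the share of light peaks differs between families was not tested. The median amplitude of the 40 was 0.10 on the log2 scale, against 0.11 over all tested genes. The highest fitted peak-to-trough fold among the 40 was 1.67 and the median over the 23 was 1.203.

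**Figure D3:**
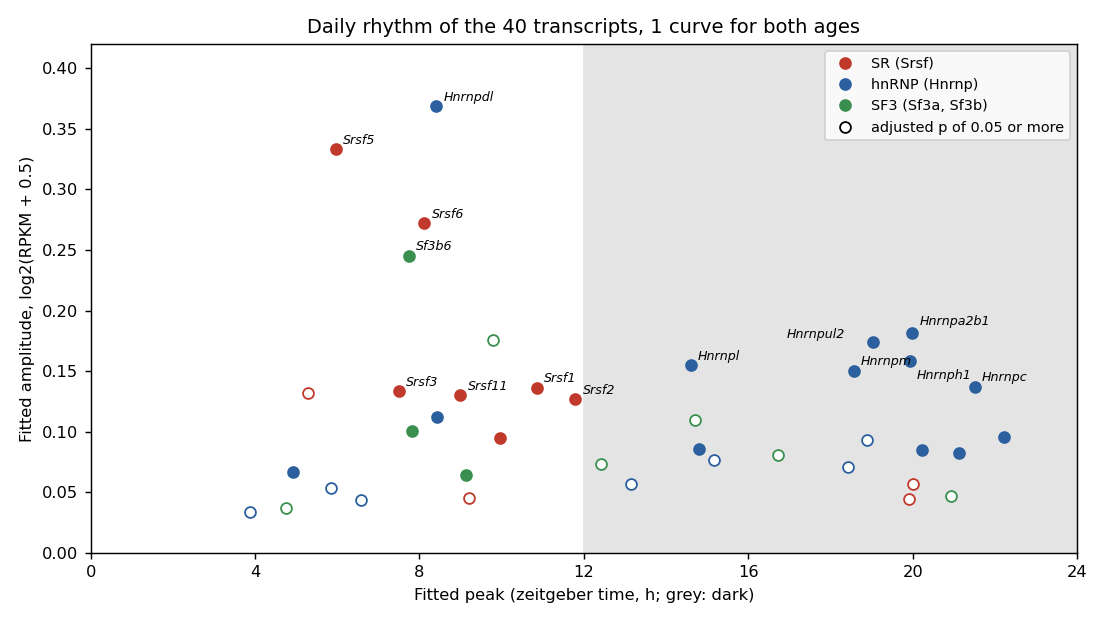
Fitted amplitude on the log2(RPKM + 0.5) scale against the fitted peak time for each of the 40 transcripts, with the dark phase in grey. Filled points passed at an adjusted p under 0.05. Filled SR and SF3 points lie in the light, and 10 of the 13 filled hnRNP points lie in the dark.

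Promoter sequences of transcripts with large amplitudes are shown because they mark where genes with light peaks and genes with dark peaks start. They are the 250 bases before the start of the gene in RefSeq on GRCm38.p6, 5′ to 3′ on the strand of the gene, for the 2 largest light and dark amplitudes among genes of the table with at most 2 listed starts. Hnrnpdl lies at chr5:100039223-100039472 (minus strand), Srsf5 at chr12:80945249-80945498 (plus), Hnrnpa2b1 at chr6:51469895-51470144 (minus, the farther upstream of 2 starts) and Hnrnpl at chr7:28810640-28810889 (plus). Capitals mark matches on either strand to CCGGAAGT, bound by ETS factors, to TTANGTAA, the core of the D-box of clock output factors, and to GAANNTTC, 2 units of the heat shock element.
Hnrnpdl: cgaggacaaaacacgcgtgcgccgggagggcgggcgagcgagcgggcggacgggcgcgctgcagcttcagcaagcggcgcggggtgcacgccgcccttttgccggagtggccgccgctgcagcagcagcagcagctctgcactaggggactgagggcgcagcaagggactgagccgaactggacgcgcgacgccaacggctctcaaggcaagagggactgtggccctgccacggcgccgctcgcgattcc
Srsf5: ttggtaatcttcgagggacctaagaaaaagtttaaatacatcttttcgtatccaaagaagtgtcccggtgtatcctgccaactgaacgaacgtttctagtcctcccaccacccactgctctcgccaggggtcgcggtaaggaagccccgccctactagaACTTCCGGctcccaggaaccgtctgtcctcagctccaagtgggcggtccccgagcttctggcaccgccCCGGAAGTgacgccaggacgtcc
Hnrnpa2b1: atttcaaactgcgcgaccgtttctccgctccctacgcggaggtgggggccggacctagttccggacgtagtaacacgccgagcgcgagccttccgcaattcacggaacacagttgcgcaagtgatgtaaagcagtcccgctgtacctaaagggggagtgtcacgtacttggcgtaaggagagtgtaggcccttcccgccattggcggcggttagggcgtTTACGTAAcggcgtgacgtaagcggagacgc
Hnrnpl: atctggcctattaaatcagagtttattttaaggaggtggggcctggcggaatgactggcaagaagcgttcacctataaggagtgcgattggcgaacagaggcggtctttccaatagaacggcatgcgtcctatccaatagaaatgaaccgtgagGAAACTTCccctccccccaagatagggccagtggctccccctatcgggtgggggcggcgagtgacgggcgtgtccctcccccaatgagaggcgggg

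In the light-peaking pair the Hnrnpdl promoter held none of the motifs searched and had a GC content of 72.0%, and that of Srsf5 held CCGGAAGT at -91 on the opposite strand and at -23 on the strand of the gene, where positions give the first base of the match counted back from the start. In the dark-peaking pair, Hnrnpa2b1 had TTANGTAA at -31 and Hnrnpl had GAANNTTC at -96. The table held 49 promoters for 36 of the 40 genes, so some genes had several. A gene was counted when any of its promoters held the motif, while the percentages are shares of promoters. Genes with several promoters have more chances of a match, so these counts and percentages are not in like units. CCGGAAGT stood in those of 7 genes (Hnrnpd, Hnrnpf, Sf3a3, Sf3b2, Srsf11, Srsf4 and Srsf5), and in 2.88% of all 32851 promoters. TTANGTAA stood in 2, both dark-peaking (Hnrnpa2b1 and Hnrnph1), and in 2.06% of all. GAANNTTC stood in 5 and in 6.69% of all. CACGTG, the E-box bound by CLOCK and BMAL1, stood in 3 (Hnrnpa3, Hnrnpd and Hnrnpf), of which Hnrnpd cycled, and in 6.02% of all. TGACGTCA, the cAMP response element, stood in none of them and in 1.55% of all. The median GC content was 64.0% over the 49 promoters of these genes and 52.4% over all others. No cycling was tested against any motif.

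SR transcripts were led by Srsf5 and Srsf6, which both promote inclusion of exons they bind. Srsf5 (ENSMUSG00000021134) in young was at 58.5, 69.7, 68.9 and 66.9 RPKM at ZT6 and at 40.9, 39.7, 39.0 and 34.1 RPKM at ZT18. In aged it was at 60.2, 59.7, 29.0 and 70.2 RPKM at ZT6 and at 41.0, 38.4 and 44.2 RPKM at ZT18. The midday values lay above the midnight values in young without overlap, and in aged they did so in all but the ZT6 replicate 3 library. The fitted amplitude of Srsf5 was 0.33 ± 0.05 (SE, log2), a peak-to-trough fold of 1.59, with a peak at ZT5.97 and an adjusted p of 1.65e-06. Fitted in aged alone, Srsf5 did not pass (adjusted p 0.0905), but it did without the pair of libraries (7.23e-05). Srsf6 (ENSMUSG00000016921) in young was at 30.7, 33.6, 35.4 and 30.9 RPKM at ZT6 and at 18.03, 20.1, 19.5 and 20.1 RPKM at ZT22. In aged it was at 26.6, 26.2, 14.3 and 26.6 RPKM at ZT6 and at 19.9, 25.7, 13.5 and 20.3 RPKM at ZT22. Groups did not overlap in young, and in aged they did through the third library at ZT6. Its amplitude was 0.27 ± 0.04, with a peak at ZT8.12 and an adjusted p of 1.63e-05. In aged alone Srsf6 did not pass either (adjusted p 0.119), but it did without the pair of libraries (0.00253).

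The other 5 SR transcripts that passed had smaller amplitudes. Srsf1, the founding member of the family, had an amplitude of 0.14 and a peak at ZT10.9, and Srsf3, which also links splicing to export from the nucleus, had 0.13 and ZT7.50. Srsf11 (0.13, ZT8.99), Srsf2, a protein of nuclear speckles (0.13, ZT11.8), and Srsf7 (0.09, ZT9.97) completed them. Srsf4, Srsf9, Srsf10 and Srsf12 did not pass, with adjusted p from 0.186 to 0.888. Srsf12 passed without the pair of libraries (amplitude 0.15, peak ZT6.26, adjusted p 0.0346), and the other 3 did not.

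Among SF3 genes the cycle was largest for Sf3b6 (ENSMUSG00000037361), the subunit that touches the branch point adenosine. Sf3b6 in young was at 20.9, 21.95, 21.96 and 21.4 RPKM at ZT6 and at 12.1, 10.4, 15.5 and 17.9 RPKM at ZT22, groups that did not overlap. In aged it was at 17.2, 22.02, 19.8 and 20.6 RPKM at ZT6 and at 13.4, 11.3, 16.4 and 15.2 RPKM at ZT22, again without overlap. Its amplitude was 0.25 ± 0.04 (SE, log2), a fold of 1.40, with a peak at ZT7.75 and an adjusted p of 1.22e-05. Fitted in aged alone, Sf3b6 did not pass (adjusted p 0.0796, and 0.0725 without the pair of libraries). Sf3b1, the largest SF3B subunit, which holds the branch point helix, had an amplitude of 0.10 (peak ZT7.82, adjusted p 0.0443), and Sf3b3, a scaffold subunit, had 0.06 (peak ZT9.14, adjusted p 0.0359). The other 6 did not pass, among them all of Sf3a1, Sf3a2 and Sf3a3. Sf3b5, a small subunit, had an amplitude of 0.18 and an adjusted p of 0.0523. Of these 6, 5 passed without the pair of libraries: Sf3b5 (amplitude 0.17, adjusted p 6e-05), Sf3b4 (0.08, 0.00122), Sf3a1 (0.08, 0.00517), Sf3a3 (0.07, 0.0157) and Sf3b2 (0.05, 0.0276). Sf3a2 did not, with an adjusted p of 0.918.

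Hnrnpdl (ENSMUSG00000029328), which binds AU-rich messages, had the largest amplitude of the 40. In young it was at 42.8, 45.0, 47.6 and 45.3 RPKM at ZT6 and at 26.0, 24.8, 25.4 and 27.5 RPKM at ZT22. In aged it was at 39.2, 40.7, 41.4 and 41.7 RPKM at ZT10 and at 23.9, 27.7, 22.8 and 24.5 RPKM at ZT22. These high and low times, picked for each age after seeing the values, did not overlap. In aged at ZT6, the replicate 3 library (27.0 RPKM) lay below the highest ZT22 value of 27.7 RPKM. The amplitude was 0.37 ± 0.03 (SE, log2), a fold of 1.67, with a peak at ZT8.40 and an adjusted p of 7.9e-15. It was 0.40 in young (adjusted p 1.84e-08) and 0.33 in aged (adjusted p 3.25e-05). Its close relative Hnrnpd, a regulator of message decay, peaked at ZT8.42 with an amplitude of 0.11, and Hnrnpr peaked at ZT4.91 with 0.07.

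The 10 dark-peaking transcripts were all hnRNPs, with amplitudes from 0.08 to 0.18. Hnrnpa2b1 (ENSMUSG00000004980), which reads and sorts messages, had the largest of these. In young Hnrnpa2b1 was at 57.9, 60.2, 61.3 and 59.7 RPKM at ZT6 and at 70.4, 75.5, 76.1 and 71.7 RPKM at ZT18. In aged it was at 56.2, 54.8, 40.1 and 61.4 RPKM at ZT6 and at 76.3, 77.0, 72.8 and 76.7 RPKM at ZT22. At neither age did the ZT6 values overlap these night values, but the times were picked for each age after seeing the values. In young the group mean at ZT2, in the light, was 73.8 RPKM, against 73.4 RPKM at ZT18. The amplitude was 0.18 ± 0.03 (SE, log2) with a peak at ZT20.0 and an adjusted p of 7.45e-06.

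Hnrnpul2 (ENSMUSG00000071659), a relative of the nuclear scaffold protein Hnrnpu, was at 28.6, 27.9, 29.3 and 29.7 RPKM at ZT6 and at 37.5, 37.1, 34.4 and 34.9 RPKM at ZT22 in young. In aged Hnrnpul2 was at 29.7, 28.5, 21.1 and 28.1 RPKM at ZT6 and at 35.05, 36.0, 35.04 and 34.0 RPKM at ZT22, again without overlap. Its amplitude was 0.17 ± 0.02 with a peak at ZT19.0 and an adjusted p of 5.38e-07. Hnrnph1, which binds runs of G, had 0.16 (peak ZT19.9), Hnrnpl 0.16 (ZT14.6), Hnrnpm 0.15 (ZT18.6) and Hnrnpc, which binds runs of U, 0.14 (ZT21.5). Hnrnpu (0.10, ZT22.2), Hnrnpll (0.09, ZT14.8), Hnrnpk (0.08, ZT20.2) and Hnrnph2 (0.08, ZT21.1) had smaller amplitudes. The most abundant members Hnrnpa0 and Hnrnpa1 were among the 7 hnRNPs that did not pass, with adjusted p of 0.567 and 0.707. Both passed without the pair of libraries, with amplitudes of 0.05 and adjusted p of 0.0318 and 0.0167, as did Hnrnpab (0.06, 0.0207) and Hnrnpul1 (0.06, 0.0149), while Hnrnpf, Hnrnph3 and Hnrnpa3 did not.

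**Figure D4:**
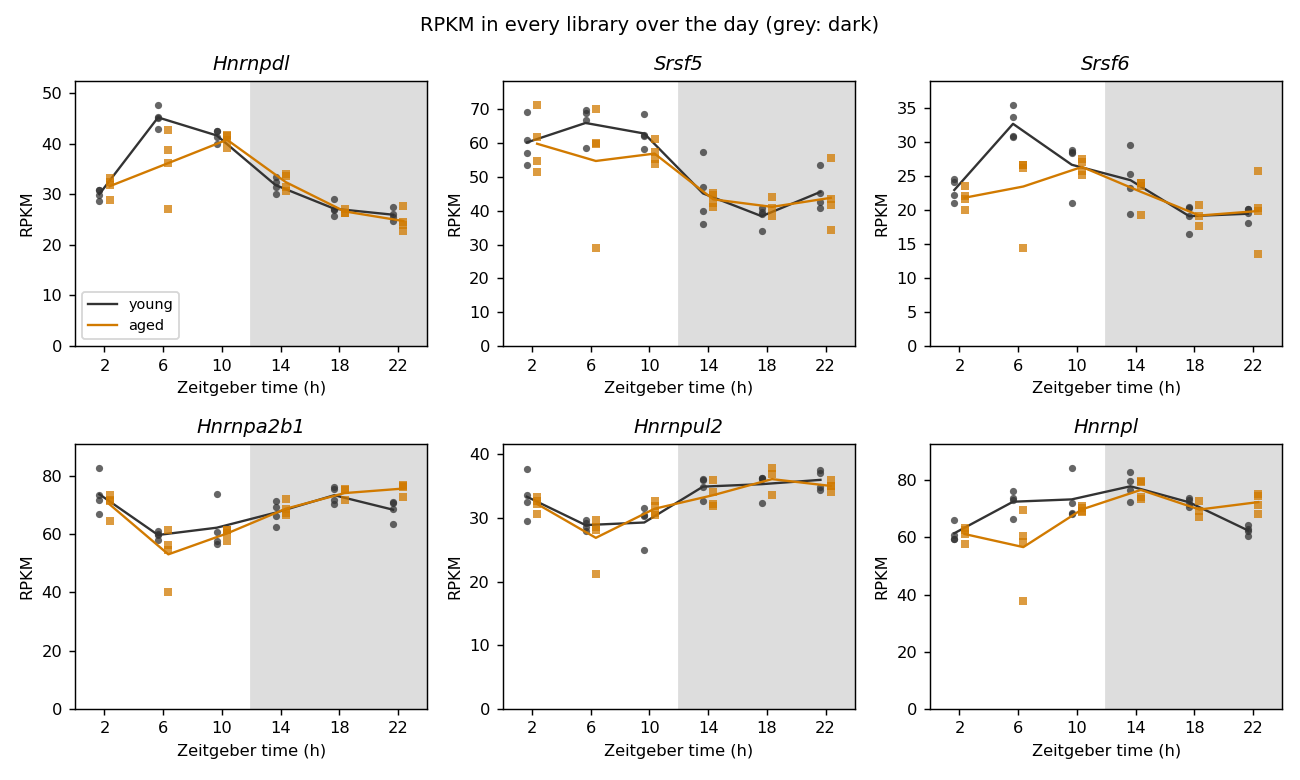
RPKM from 0 upward against zeitgeber time for 6 transcripts, 1 point per library (black circles young, orange squares aged) with lines through the group means and the dark phase in grey. At both ages the group means of Hnrnpdl, Srsf5 and Srsf6 are higher at ZT6 and ZT10 than at ZT18 and ZT22. Those of Hnrnpa2b1 and Hnrnpul2 are lower. The low orange point at ZT6 in each panel is aged replicate 3, and the 2 curves of Hnrnpl part at ZT6 and ZT22.

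Tested within each age, 13 transcripts cycled in young (19.7% of all tested genes) and 9 in aged (14.4%). Both tests called 4, all hnRNPs (7.56% of all genes): Hnrnpdl, Hnrnpul2, Hnrnpa2b1 and Hnrnpl. Of the 23, peaks in young and aged lay within 3 h of each other for 21, and the median distance was 1.23 h. The exceptions were Hnrnpl, 4.03 h later in aged, and Srsf2, 3.03 h later. The shared fit favours transcripts whose peaks agree between ages, so this closeness is partly built into the choice of the 23. Only 4 of the 23 passed in both ages, so most distances use a peak from a fit that did not pass. Such a peak could have an SE over 3 h, as for Sf3b3 in young (3.40 h, adjusted p 0.749). Without the pair of libraries, 22 transcripts cycled in young (34% of all genes), 21 in aged (27.3%), 16 in both (19.4%) and 33 in the shared fit (53.4%). All 23 named above remained among the 33, on the same side of the day. In that fit the SR family had 8 light peaks and no dark one, the hnRNPs 6 light and 11 dark, and SF3 6 light and 2 dark. Of all tested genes 39.2% passed there with a light peak and 14.1% with a dark one.

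The side of the day depended in part on scaling. A 24 h curve fitted to the level of the median gene had an amplitude of 0.05 (log2) and a peak at ZT8.93. That curve was not tested, and it included the pair of libraries, whose values were -0.19 (aged) and -0.29 (young). After median-ratio scaling, which sets the median gene level in each library, 18 transcripts passed, 6 with light and 12 with dark peaks in place of 13 and 10. Of the 23, 16 kept both their call and their side, among them Srsf1, Srsf5, Srsf6, Srsf11, Sf3b6, Hnrnpdl and all 10 dark-peaking hnRNPs. Srsf2 moved to a dark peak at ZT13.2, Srsf4 passed with a peak at ZT20.4, and Srsf3, Srsf7, Sf3b1, Sf3b3, Hnrnpd and Hnrnpr did not pass. After quantile normalization 9 peaked in the light and 11 in the dark, and 19 of the 23 kept call and side. Over all genes the shares with light and dark peaks were 12.6% and 14.1% after median-ratio scaling.

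Markers of tissue next to the retina also moved with time. The summed level of 9 retinal pigment epithelium markers had a median of 15.4 RPKM in the light and 41.5 RPKM in the dark in young, with a range over all libraries of 5.94 to 185 RPKM. In aged the medians were 18.6 and 63.6 RPKM. All 6 of these markers that were tested cycled, with peaks in the dark, and none of the 6 was at 0 in any library, while Mlana was at 0 in 8 and Best1 in 2. The 5 blood markers had medians of 59.2 RPKM in the light and 315 RPKM in the dark in aged, and of 59.1 and 55.5 RPKM in young. The 7 lens markers ranged from 0.501 to 2326 RPKM. With pigment epithelium and lens levels as covariates, 19 of the 40 cycled in the shared fit (20.4% of all genes) and 11 in young (12%). In aged 2 did, where the count over all genes was 308 (2.01%). The shares over all genes were thus also lower than without these covariates. Hnrnpa2b1 in aged then had an amplitude of 0.25 and an adjusted p of 0.0988, and Hnrnpul2 had 0.23 and 0.109. The part of blood in these cycles was not tested.

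Levels of the 40 transcripts in young and aged retinas lay close together. With time in the model, none was called at an adjusted p under 0.05, with or without a minimum fold of 1.5, where 0.49% of all genes passed with the fold and 4.24% without it. At an unadjusted p under 0.05 limma gave 0 of 40, against 15.7% of all genes. Differences between aged and young ran from -0.12 for Srsf6 to 0.07 for Srsf12 on the log2 scale, 15 higher and 25 lower in aged. That balance was 23 and 17 without the pair of libraries, 21 and 19 with median-ratio scaling, and 17 and 23 with quantile normalization. The median size of the difference was 0.03, against 0.06 over all tested genes. The 95% intervals of 39 of the 40 lay within 1.2-fold in either direction, those of 25 within 1.1-fold, and the widest bound was -0.27, so larger differences than these lie outside the intervals. The smallest unadjusted p was 0.0645, for Hnrnpc, with young libraries at 53.6 ± 6.32 RPKM (SD, n = 24), aged libraries at 55.8 ± 5.44 RPKM (SD, n = 23), and an adjusted p of 0.36. Srsf6 was at 24.2 ± 5.29 RPKM (SD) in young and 22.3 ± 3.93 RPKM (SD) in aged, with an adjusted p of 0.395.

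These counts changed without the pair of libraries. Then 6 transcripts were higher in aged, all by small amounts: Hnrnpab by 0.11 (log2, adjusted p 0.0041), Srsf9 by 0.11 (0.0121), Hnrnpm by 0.10 (0.0095), Hnrnpc by 0.09 (0.0165), Hnrnpa1 by 0.09 (0.0054) and Hnrnpk by 0.04 (0.05 after rounding, just under the threshold). Sf3b3 was lower, with a log2 difference of -0.06 (adjusted p 0.0277). Over all genes 7.24% were higher and 9.29% lower in that fit, so the share of the 40 called in all, 7 of 40, was close to that of all genes (16.5%). None of the 7 had a fold over 1.5. The Srsf9 difference changed sign, since it was -0.01 with all libraries. With any single library left out, the count called for age was 0.

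**Figure D5:**
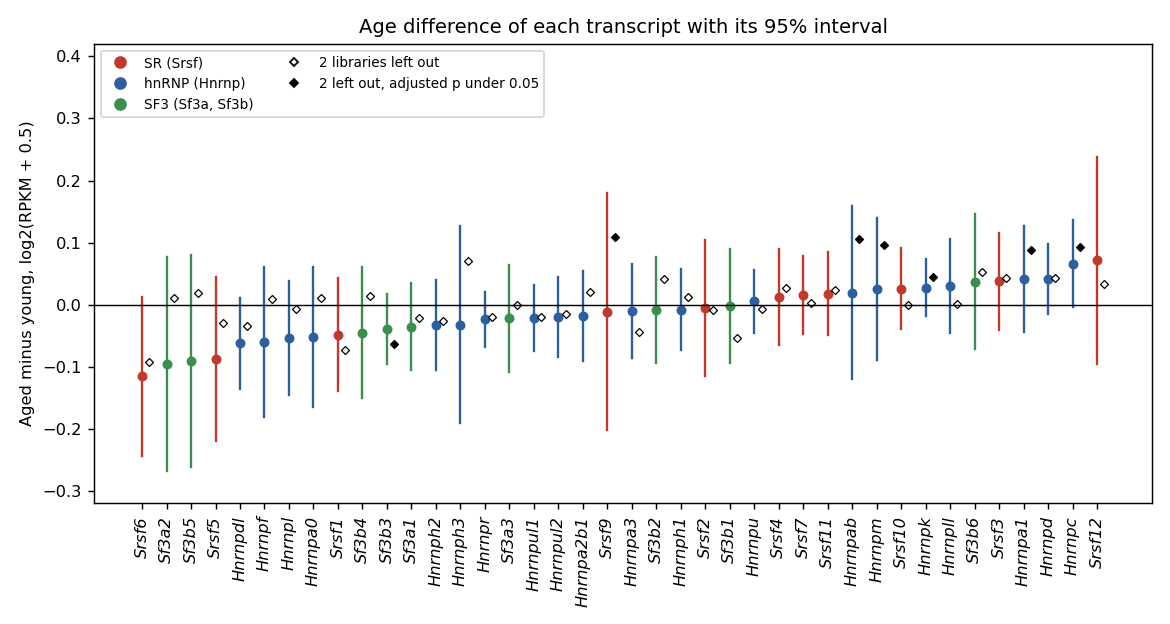
Aged minus young difference on the log2(RPKM + 0.5) scale for the 40 transcripts, ordered by size. Circles with lines are the estimates from 47 libraries with 95% intervals, and diamonds are the estimates without the pair of libraries, filled where the adjusted p is under 0.05. The intervals lie between -0.27 and 0.24, and the 7 filled diamonds stand at or below 0.11 in size.

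At single times none of the 40 was called with a fold over 1.5 (1.79% of all genes at 1 or more times). Without a fold minimum 3 were lower in aged, all at ZT6, where 2.45% of all genes were lower: Hnrnpl by a log2 difference of -0.39 ± 0.09 (SE, adjusted p 0.0186), Hnrnpdl by -0.34 ± 0.08 (0.0134) and Srsf6 by -0.51 ± 0.15 (0.0466). At ZT6 Hnrnpdl in aged was at 36.2, 38.8, 27.0 and 42.6 RPKM, all under the lowest young value of 42.8 RPKM. The Srsf6 values at ZT6 did not overlap between ages either, while those of Hnrnpl did. The lowest of each was the aged replicate 3 library. Without the pair of libraries the differences were -0.21 for Hnrnpl (adjusted p 0.037), -0.20 for Hnrnpdl (0.0681) and -0.29 for Srsf6 (0.286), and Srsf1 was also lower at ZT6 (-0.37, adjusted p 0.0126), with 0.822% of all genes lower.

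Hnrnpl (ENSMUSG00000015165) had the smallest p of the 40 for a different rhythm. In young it was at 59.4, 66.0, 59.6 and 60.9 RPKM at ZT2, at 73.2, 73.9, 76.4 and 66.6 RPKM at ZT6 and at 60.3, 62.9, 62.3 and 64.3 RPKM at ZT22. In aged it was at 57.7, 61.0, 62.7 and 63.4 RPKM at ZT2, at 58.5, 60.4, 37.9 and 69.6 RPKM at ZT6 and at 71.5, 75.3, 68.1 and 74.5 RPKM at ZT22. Every aged value at ZT22 lay above every young one, and the ages overlapped at ZT2 and ZT6. At ZT14, near the peak of both ages, the 2 ages overlapped too, at 72.5 to 82.7 RPKM in young and 73.4 to 79.7 RPKM in aged. The fitted peak was at ZT12.4 in young and at ZT16.5 in aged. The unadjusted p of the difference in rhythm was 0.0104 and the adjusted p 0.606. Without the pair of libraries the peaks were ZT12.6 and ZT15.8 (unadjusted p 0.0116, adjusted 0.544), and the ZT22 difference of 0.21 had an adjusted p of 0.0266, against 0.926 with them, with 0.574% of all genes higher at that time.

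No rhythm of the 40 differed between ages after adjustment, where 1 of all tested genes did (0.00653%). At an unadjusted p under 0.05 there were 4 (1187 over all genes): Hnrnpl, Hnrnph1 (p 0.0248), Srsf12 (0.0399) and Sf3b5 (0.0438), followed by Hnrnpa2b1 (0.0977) and Hnrnpa3 (0.112). There were again 4 without the pair of libraries, of which Hnrnpl alone was shared: the others were Srsf7 (p 0.0153), Srsf1 (0.021) and Hnrnpd (0.0311), and Hnrnph1 (0.0758), Srsf12 (0.0793) and Sf3b5 (0.0741) were over 0.05. Hnrnph1 had an amplitude of 0.10 in young and 0.22 in aged, and Hnrnpa2b1 of 0.13 and 0.24. Light-peaking transcripts went the other way in the count: 9 of the 13 had a larger fitted amplitude in young, such as Srsf5 (0.41 and 0.25), Srsf6 (0.35 and 0.20) and Sf3b6 (0.30 and 0.18), and 8 of the 10 dark-peaking ones had a larger one in aged. Without the pair of libraries the first count was again 9 of 13, but the second was 4 of 10, and Srsf5 had 0.40 and 0.35. Neither count was made over all genes, so no trait of the 40 is read from them. The age by time interaction called none of the 40 and none of all genes (0% called), with 3 of the 40 (Hnrnpl, Hnrnpdl and Srsf1) and 735 genes at an unadjusted p under 0.05 in limma. Weighting libraries by their spread gave 8 of the 40 for that interaction, against 10.4% of all genes.

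Other splicing genes cycled in a share near that of all tested genes. Of 99 in 7 lists, 95 were tested, and 28 (29.5%) cycled in the shared fit, 16 with light and 12 with dark peaks. With the pair left out 55 (57.9%) cycled, 38 with light and 17 with dark peaks, where 53.4% of all genes did. With all libraries the lists had 5 of 15 for SR kinases and SR-related proteins, 4 of 12 for U2 and branch point factors, 5 of 18 for U1, U5 and tri-snRNP proteins, 1 of 7 for the Sm core, 7 of 28 for neural and tissue regulators, 4 of 13 for nonsense-mediated decay and exon junction, and 2 of 2 for the cold-inducible RNA-binding proteins. SR proteins are phosphorylated by the Clk kinases, and of these Clk4 peaked at ZT9.24 (amplitude 0.14) and Clk3 at ZT14.0 (0.16). Tra2a, an SR-like exon activator, peaked at ZT18.7 (0.13). Next to SF3B in the U2 particle, Snrpb2 peaked at ZT7.48 (0.23), close to Sf3b6, while U2af2, which reads the polypyrimidine tract, peaked at ZT15.3 (0.16). Of the tri-snRNP, Txnl4a peaked at ZT18.3 (0.23), and Snrnp70 of U1 at ZT10.0 (0.26). Rbm3 and Cirbp had the largest amplitudes, 0.89 and 0.42, with peaks at ZT9.35 and ZT6.76. With age, 2 of the 95 were higher, Khdrbs3 by 0.13 ± 0.04 and Ptbp3, a relative of the exon repressor Ptbp1, by 0.25 ± 0.08 (log2 ± SE, adjusted p 0.0462 for both), and none was lower. With the pair left out 3 were higher, Khdrbs3 (0.17), Ptbp3 (0.16) and the Sm protein gene Snrpd1 (0.14), and 7 were lower: Celf3 (-0.25), Srrm4 (-0.19), Smg1 (-0.17), Srrm2 (-0.15), Celf2 (-0.13), Smg6 (-0.08) and Dhx15 (-0.05), each a log2 difference that passed at an adjusted p under 0.05.

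The aged ZT6 replicate 3 library is described here by its splicing factor transcripts, since it sets many of the values above. Its largest deviations from the median of the group were -2.05 (log2) for Srsf9, -1.90 for Sf3a2, -1.42 for Hnrnpab, -1.37 for Hnrnph3 and -1.20 for Hnrnpa0, and Sf3b1 (0.44), Hnrnpa3 (0.39) and Srsf10 (0.39) were higher there. The 14 transcripts more than 1.5-fold low had a median exon length of 3099 bases, from 1653 to 7956, and the other 26 a median of 6306.5 bases, from 2854 to 22199. In the young ZT10 replicate 4 library, Sf3b5 deviated by 1.11 and Hnrnph3 by 0.92, and Srsf12 by -0.90 and Sf3b1 by -0.70. The part of transcript length in these deviations was not tested.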

How the data were processed

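Per the submitters' processing notes, FastQC 0.23.4, HISAT2 2.2.1, Subread 2.0.6 and the build GRCm39 were used, with no role stated. The authors deposited RPKM values, 1 column per library. A column without a matching sample (1) stayed out. Depth is known only through the totals the values imply.

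Symbols, biotypes and exon lengths came from GENCODE M21, of an earlier build than GRCm39. The 15321 genes at or over 0.5 RPKM in 12 or more of the 47 libraries were tested with limma 3.58.1 (R 4.3.3) on log2(RPKM + 0.5), a scale that understates folds of low genes. Variances were moderated with a trend, and p-values were adjusted over all these genes by Benjamini-Hochberg. The age test used every library and a 6-level time factor, single times and the interaction from 12 group means, and rhythm by F tests of 24 h cosine and sine terms in each age, in a shared fit with age as a term, and as age by cosine and sine terms. The scripts were tested on simulated data. The labels' design text names edgeR, which was not used here, since RPKM values are not counts. That text also names MetaCycle and CircaCompare, which were not installed, and the limma fits of cosine and sine terms took their place.

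The members and lists were chosen with earlier results of these data known. Values are given for up to 12 members by amplitude among those cycling, the 6 smallest p for a different rhythm, the 4 highest and 3 lowest levels, and up to 3 rhythmic and 2 age-called genes per list; other names complete short counts. No member was called for age. The times whose values are printed were picked with the values known, so a lack of overlap between them is not a test. Alternatives changed the pseudocount, filter, scaling, block, weights, covariates, variance trend, threshold and form of the rhythm test, and left out each library. Promoter motifs were chosen after seeing the data.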

Additional observations from a re-analysis of the deposited data

Results flagged for a closer look

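In a check of each group of 4 libraries for a highest or lowest value far from the other 3, 10 of 110 checks over the 3 family means and 7 members (Hnrnpdl, Srsf5, Srsf6, Hnrnpul2, Hnrnpa2b1, Hnrnph1 and Hnrnpl) gave such a value. Chance gives about 1 in 20. Of these, 3 are the family means of the aged ZT6 group, whose lowest library stood at 3.91 for SR, 4.56 for hnRNP and 3.54 for SF3 (mean log2 level). The SF3 mean also had a highest library apart in aged ZT22 (4.10) and in young ZT10 (4.37). Srsf6 had a lowest library apart in aged ZT14 (19.3 RPKM), aged ZT6 (14.3 RPKM) and young ZT10 (21.0 RPKM). Hnrnpul2 had one in young ZT18 (32.4 RPKM), and Hnrnph1 a highest one in young ZT2 (57.7 RPKM). The values of aged ZT6 and young ZT10 are those of the replicate 3 and replicate 4 libraries described above.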

How the results depend on the processing

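For the members chosen for full values, no age difference or cycle that passed the test reversed its direction under any alternative run. Outside these, Srsf2 moved from a light peak (ZT11.8) to a dark one (ZT13.2) after median-ratio scaling, and the Srsf9 age difference went from -0.01 to 0.11 without the 2 libraries, where it passed. The count of members cycling in the shared fit was 16 to 34 and stayed within 1.5 times of 23. The 16 came with an adjusted p under 0.01 (20.3% of all genes) and the 34 with array weights (64.1%). The counts called for age with the fold minimum and for a different rhythm were 0 throughout. With array weights, 8 members were called for age without the fold minimum (15.6% of all genes) and 8 for the interaction (10.4%). In that run 27 cycled in young (46.1% of all genes) and 23 in aged (39.3%), so the calls rose over all genes too. With both libraries left out, 7 were called for age without the fold minimum (16.5% of all genes), and 22 cycled in young (34%) and 21 in aged (27.3%). An adjusted p under 0.01 left 7 cycling in young (11.3% of all genes), and the tissue covariates left 2 cycling in aged (2.01%). The cause was not tested.

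Leaving out each library in turn gave 0 to 2 members called at single times, 8 to 21 cycling in aged, 12 to 22 in young and 20 to 28 in the shared fit. The members called at single times were Srsf6 without aged ZT6 replicate 1 and Sf3a2 and Sf3b5 without aged ZT6 replicate 4, all lower in aged at ZT6. These runs kept the aged ZT6 replicate 3 library. With all libraries 1.79% of all genes were called at 1 or more times. In aged the count cycling was 21 without aged ZT6 replicate 3 (27.3% of all genes) and 14 without aged ZT22 replicate 2 (16%). In young it was 22 without young ZT10 replicate 4 (34%). For the named members, 3590 values kept their side of the threshold, 38 passed it newly and 30 no longer did.

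Replicate numbers did not pair the samples: same-numbered libraries had a mean correlation of 0.03 over 253 pairs (-0.01 for other numbers), and 17 of 47 libraries correlated best with their own number. With the replicate block, 23 members cycled in the shared fit, 12 in young and 11 in aged, and 0 were called for age, single times, the interaction or a different rhythm. RPKM values hold no counts, so counting error could not be given per value. Srsf12, the member with the lowest level, had both the highest age difference (0.07, log2) and the highest upper bound (0.24).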
